A study of Mus musculus with 4 samples.

Results

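The -HOT cells were mouse embryonic fibroblasts of the line iMEF2, cultured for 7 days with the solvent ethanol. They made up 2 of the 4 ATAC-seq samples of the series, and both -HOT libraries were used without selection on any measured value. The cells came from embryos with the genotype Ash2l fl/fl/Cre-ER, in which both Ash2l alleles carry a loxP-flanked exon and an inducible Cre recombinase is expressed. They were immortalized with a retroviral shRNA against p19Arf and selected with Blasticidin, and all cells of the series share these alterations. Without 4-hydroxytamoxifen (HOT) the Cre-ER protein should stay inactive, so Ash2l is expected to be retained. Cells treated with HOT were not analysed here. The study treats the libraries as technical replicates of a single line, so their spread does not cover different cultures or embryos.

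ATAC-seq uses the transposase Tn5, which inserts sequencing adapters preferentially where DNA is not wrapped in nucleosomes. The density of reads therefore marks open chromatin at active promoters, at enhancers and at sites bound by insulator proteins. Fibroblasts build the connective tissue matrix and are set apart from other lineages by mesenchymal factors such as TWIST1 and PRRX1. In cultured fibroblasts, enhancers are commonly bound by AP-1, a dimer of FOS and JUN proteins, together with TEAD and RUNX factors. HOX genes keep a record of the position along the body axis from which a fibroblast was taken.

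The values are read counts in 119609 intervals, given as CPM, the count divided by the library's total over intervals and multiplied by 1e+06. A promoter interval is one whose centre lies within 3000 bp of a transcription start site (TSS) that GENCODE vM1 gives for protein-coding or lincRNA genes, and the others on placed chromosomes are called distal. The promoter value of a gene is that of its strongest such interval. Coordinates are 1-based positions in mm9. A pair of values always gives replicate 1 and then replicate 2.

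Sequences, read from the mm9 reference genome, upstream of the strongest promoter in each of the 3 fibroblast gene lists come first, as the 150 bp that end just before the TSS. Capitals mark a GC box (GGGCGG, bound by SP and KLF factors) or a CCAAT box (bound by NFY), searched on both strands.
Col5a1 promoter (chr2:27741795-27741944, plus strand): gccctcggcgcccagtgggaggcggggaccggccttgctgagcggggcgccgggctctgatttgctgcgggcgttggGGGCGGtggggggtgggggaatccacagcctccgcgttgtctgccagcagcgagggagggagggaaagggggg
Vim promoter (chr2:13495404-13495553, plus strand): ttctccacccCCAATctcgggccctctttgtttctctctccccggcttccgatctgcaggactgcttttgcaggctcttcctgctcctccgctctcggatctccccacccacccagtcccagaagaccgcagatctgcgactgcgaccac
Nfatc4 promoter (chr14:56443482-56443631, plus strand): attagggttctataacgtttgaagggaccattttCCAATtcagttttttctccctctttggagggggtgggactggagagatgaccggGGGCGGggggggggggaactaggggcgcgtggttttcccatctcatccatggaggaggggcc
For contrast, the same window is shown for Myod1, Olig2 and Pou5f1, which encode regulators of muscle, oligodendrocytes and pluripotent cells and whose promoter intervals were among the weakest of their lists. These genes were picked after their values were seen.
Myod1 promoter (chr7:53631694-53631843, plus strand): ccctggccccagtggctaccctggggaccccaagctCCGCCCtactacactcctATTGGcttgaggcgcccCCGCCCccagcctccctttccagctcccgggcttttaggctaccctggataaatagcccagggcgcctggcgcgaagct
Olig2 promoter (chr16:91225645-91225794, plus strand): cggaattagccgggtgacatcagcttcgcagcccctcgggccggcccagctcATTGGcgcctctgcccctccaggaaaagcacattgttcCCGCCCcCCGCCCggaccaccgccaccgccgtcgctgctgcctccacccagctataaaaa
Pou5f1 promoter (chr17:35644277-35644426, plus strand): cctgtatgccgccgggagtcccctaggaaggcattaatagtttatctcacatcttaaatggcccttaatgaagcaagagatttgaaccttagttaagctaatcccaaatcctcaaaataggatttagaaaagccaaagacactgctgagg
The GC-rich Col5a1 window holds 1 GC box and the Vim window 1 CCAAT box, while Nfatc4 holds 1 of each. The Myod1 and Olig2 windows hold 2 GC boxes and 1 CCAAT box each, and the Pou5f1 window holds neither. The first 3 windows lie within the strongest interval of their gene, whereas the windows of Myod1, Olig2 and Pou5f1 lie outside theirs, which start downstream of the TSS. A match to these letters did not separate the promoters shown. Over 48003 annotated TSSs, a GC box was present in 35.1% of such windows and a CCAAT box in 23.8%.

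The next sequences are the central 150 bp of the 3 strongest distal intervals of single-copy sequence that hold an AP-1 motif there, with the motif TGANTCA in capitals.
distal interval near Nanos3 (chr8:86726441-86726590, plus strand): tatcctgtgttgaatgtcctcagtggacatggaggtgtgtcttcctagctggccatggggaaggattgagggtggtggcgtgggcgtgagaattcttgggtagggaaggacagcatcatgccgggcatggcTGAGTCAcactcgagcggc
distal interval near Ahnak (chr19:9057933-9058082, plus strand): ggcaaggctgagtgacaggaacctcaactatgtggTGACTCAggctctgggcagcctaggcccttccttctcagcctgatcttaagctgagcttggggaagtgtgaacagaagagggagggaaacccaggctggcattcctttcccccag
distal interval near Tlr1 (chr5:65268780-65268929, plus strand): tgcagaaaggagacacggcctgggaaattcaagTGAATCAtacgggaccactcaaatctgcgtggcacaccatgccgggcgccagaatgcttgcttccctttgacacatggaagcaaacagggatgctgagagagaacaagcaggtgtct
The interval near Nanos3 (chr8:86724845-86728185) held 96.2 and 90.9 CPM in replicates 1 and 2 and ranked 17 among the 98797 distal intervals. The interval upstream of Ahnak (chr19:9056720-9059295) held 81.2 and 81.8 CPM, and that near Tlr1 (chr5:65267328-65270380) 75.8 and 74.3 CPM. All lie outside annotated genes. The motif was found in the central 150 bp of 15.3% of all distal intervals and of 16.1% of the strongest 10%.

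The libraries held 37151163 and 30411621 reads in intervals. Intervals had a median length of 804 bp and together covered 111.3 Mb. At least 20 reads were present in both libraries in 115481 intervals (96.5%), so nearly every interval was measured in -HOT cells. The replicates did not hold the same counts, and the chi-square of their counts was 2.22 times its degrees of freedom. If both mates of a read pair were counted, this value alone could not show that the libraries were separate. The study gives different numbers of PCR cycles for the -HOT replicates. Across intervals, which are not independent replicates, the log2 CPM correlated at r = 0.984. Values more than 2-fold apart between replicates were found in 1277 intervals (1.07%), and in 145 of the 99642 intervals (0.146%) with at least 100 reads over both libraries. Among intervals with at least 100 reads in one library, the largest ratio was at chrX:32095140-32096225, with 1.48 CPM in replicate 1 and 3.88 CPM in replicate 2. Of the 5 most divergent intervals, 4 were higher in replicate 2 and of repeated sequence, and 1 at the Epb4.1l4b promoter (3.499 and 1.51 CPM) was higher in replicate 1. For intervals with at least 100 reads the median relative SD was 6.61%.

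Promoter intervals were fewer but stronger than distal ones. On placed chromosomes there were 20542 promoter intervals (17.2%), which took 39.3% and 38.0% of the reads. The 98797 distal intervals (82.6%) took 59.4% and 60.6%. Median levels were 15.4 CPM for promoter and 3.59 CPM for distal intervals. Promoter intervals were also longer, with a median of 1382 bp against 738 bp for distal intervals, and per kb the medians were 11.1 and 4.95 CPM. They were richer in G and C (58% against 45% in the centre) and had more CpG relative to base composition (a ratio of 0.588 against 0.187). With the 2 mitochondrial intervals, which also lie near annotated TSSs, promoter intervals took 40.4% and 39.2% of the reads.

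Reads were unevenly spread over the intervals. The strongest 1% (1196 intervals) took 9.22% of the reads in both libraries and the strongest 10% took 42.7% and 41.9%. Of the strongest 1%, 968 were promoter and 221 distal intervals. The 59805 weakest intervals took 12.3% and 12.8%. Of the distal intervals, 47.5% lay within a protein-coding gene, with a median of 3.69 CPM, against 3.497 CPM for those outside genes. Their median distance to a TSS was 32.5 kb, and 20360 (20.6%) lay over 100 kb away.

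**Figure D1:**
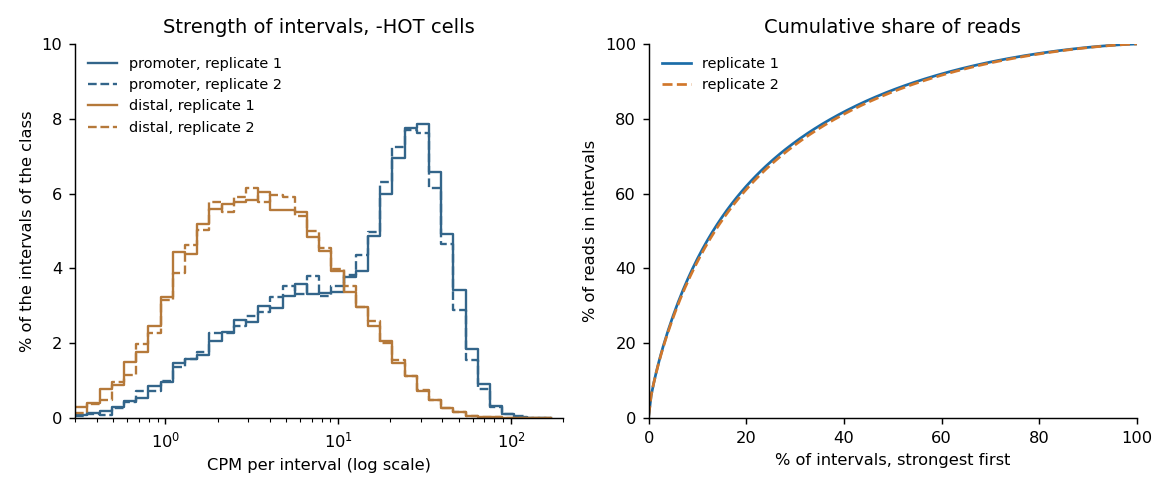
Left, distribution of interval CPM (x axis, log scale; values under 0.3 or over 200 CPM are not drawn) as a percentage of the promoter or distal intervals (y axis), for replicate 1 (solid) and replicate 2 (dashed). Right, cumulative percentage of reads (y axis) against the percentage of intervals taken from the strongest (x axis). Promoter intervals, with a median of 15.4 CPM, peak at higher values than distal intervals, with a median of 3.59 CPM, and the curves of both libraries lie close together.

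The very strongest signals came from repeated or multi-copy sequence, so they are given apart. Both mitochondrial intervals were the highest of all, at 6157 and 6538 CPM and at 4982 and 5318 CPM. On placed chromosomes an interval over AY036118 (chr17:39980052-39985665), with a GC content of 72% in its centre, held 5669 and 5620 CPM. Next were intervals at the predicted genes Gm10800 (855 and 1190 CPM) and Gm10801 (334 and 434 CPM) on chromosome 2. To judge copy number, 20 evenly spaced 31-mers per interval were counted in the assembly, and an interval was called single-copy when at least 80% of them occurred once. The Gm10800 and Gm10801 intervals had 35% and 45% of such 31-mers and lay higher in replicate 2. The AY036118 interval had 95%, but copies in the assembly do not measure copies in the cells. Of the 100 strongest intervals by CPM, 84 were single-copy and 70 were promoter intervals. Ranked per kb, 65 were single-copy and 50 were promoter intervals.

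The strongest single-copy promoters belonged to genes of varied function. The Tgif1 promoter (chr17:71197381-71203069) held 136.2 and 137.9 CPM and spanned 5689 bp. TGIF1 is a homeodomain corepressor of TGF-beta signalling. The promoter of Brd2, which encodes a reader of acetylated histones, held 127 and 118 CPM, and that of Mnt, a MAX partner that opposes MYC, 122 and 113 CPM. Hjurp, the chaperone that deposits the centromeric histone CENP-A, had 112 and 121 CPM within only 1882 bp. Trappc3, of a vesicle tethering complex, followed with 116 and 107 CPM, and the circadian repressor Nr1d1 with 112 and 109 CPM. Each of these held at least 107 CPM in both replicates, against a median of 22.8 CPM over all promoters.

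Some strong intervals cannot be assigned to 1 gene. Tnfrsf12a, which encodes a TWEAK receptor, shared an interval of 113 and 107 CPM with Hcfc1r1 and Thoc6. The longest interval of the table (6348 bp) covered 5 histone genes, among them Hist1h2bg and Hist1h3d, and held 106.4 and 110.5 CPM. Hnrnpl, an RNA-binding splicing factor, had 106 and 101 CPM, and Myadm had 103 and 102 CPM. In all, 3690 genes shared their strongest interval with another gene.

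Ranking by CPM per kb favoured short, dense intervals. Hjurp was then the first single-copy promoter, with 59.3 and 64.1 CPM per kb. The oxysterol-binding protein gene Osbp followed with 56.9 and 56.7 CPM per kb, then Khsrp, an RNA-binding factor, with 58.3 and 54.5 CPM per kb. Cirbp, whose product is a cold-inducible RNA-binding protein, reached 56.8 and 55.2 CPM per kb in an interval of 299 bp. Hdgfrp2, Gna12, Tapbp with Zbtb22, Mylpf with Tbc1d10b, Cic and Dapk3 ranged between 47.3 and 53.3 CPM per kb on average. Several of these intervals were unremarkable by CPM, such as that of Cirbp with 16.98 and 16.5 CPM.

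Genes for small nuclear RNAs (snRNAs), the RNA parts of the spliceosome, recurred among the strongest intervals. An interval over a pair of U4 genes near Sirt4 held 118 and 120 CPM, an interval with a U5 gene near Refbp2 99.0 and 103.1 CPM, and a U6 interval near ORF61 99.4 and 99.4 CPM. The next 6, with U1, U5, U2 or U12 genes, lay between 64.6 and 93.6 CPM on average. Of the 1423 annotated snRNA genes, most without an interval, 73 intervals overlapped at least 1. These were 0.0612% of the placed intervals but 7 of the strongest 100, and their median was 16.1 CPM, against 4.22 CPM for the other intervals. The U genes have many near-identical copies, so reads may be split between them.

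An interval was found at the promoters of 16697 of 23872 annotated genes (69.9%). This share was 70.9% for protein-coding genes (15764 of 22232) and 76.2% for lincRNA genes (584 of 766). In 16576 genes the strongest interval had at least 20 reads in both libraries. The median promoter level was 22.8 CPM, with quartiles of 10.8 and 33.9 CPM. Promoters above 33.9 CPM are called the top 25%, a group of 4175 genes or 17.5% of all annotated genes, which is the background for the list counts. The sources do not say how peak calls were merged across libraries, so an interval does not show that a peak was called in -HOT cells, and a gene without an interval was not measured, rather than measured at 0.

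Just upstream of the TSS, GC and CCAAT boxes were more frequent where the promoter interval was strong. Of 27241 TSSs inside an interval, 52.9% had a GC box in the 150 bp upstream, against 11.7% of 20762 TSSs outside any interval. When the TSSs inside intervals were ordered by CPM, the share with a GC box was 59.2% in the strongest 25% and 42.7% in the weakest. The share with a CCAAT box was 32.5% in the strongest 25%, 20.4% in the weakest and 21.8% outside intervals. Median GC content of these windows was 65.3% in the strongest 25%, 60.7% in the weakest and 48.7% outside intervals. In the central 300 bp of promoter intervals ranked by CPM, CCAAT was found in 30.1% of the strongest 10% and 31.3% of the weakest. Shares between these ends fell as low as 23.0%. Ranked per kb, the strongest 10% had 37.1% and the weakest 31.2%, so the difference depended on the ranking. GC content moved with the upstream shares, and its part in them was not tested.

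Genes of the fibroblast lineage nearly all had a promoter interval, and many of these were strong. Of 101 genes in 3 lists (surface, signalling and cytoskeleton genes, extracellular matrix genes, and mesenchymal transcription factors), 99 had a promoter interval and 52 (51.5%) lay in the top 25%. For 8 lists of other lineages with 176 genes together, 123 had an interval and 10 (5.68%) lay in the top 25%. Median promoter levels were 36.4 CPM in the fibroblast lists and 7.49 CPM in the other lists, beside 22.8 CPM over all genes. Fibroblast promoters were often covered by long intervals, and ranked per kb the top 25% held 30 of the 101 fibroblast genes and 8 of the 176 others. Distal intervals within 50 kb of a TSS summed to a median of 92.6 CPM in the fibroblast lists, 27.7 CPM in the other lists and 23.0 CPM over all genes. The windows of all TSSs of a gene were joined and sums were not scaled to their width. Genes with TSSs far apart can therefore have larger sums. The lists are small and were compiled with earlier results of these data known, so no test was applied. In such bulk samples, fewer cells with an open site and less signal per cell cannot be told apart.

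**Figure D2:**
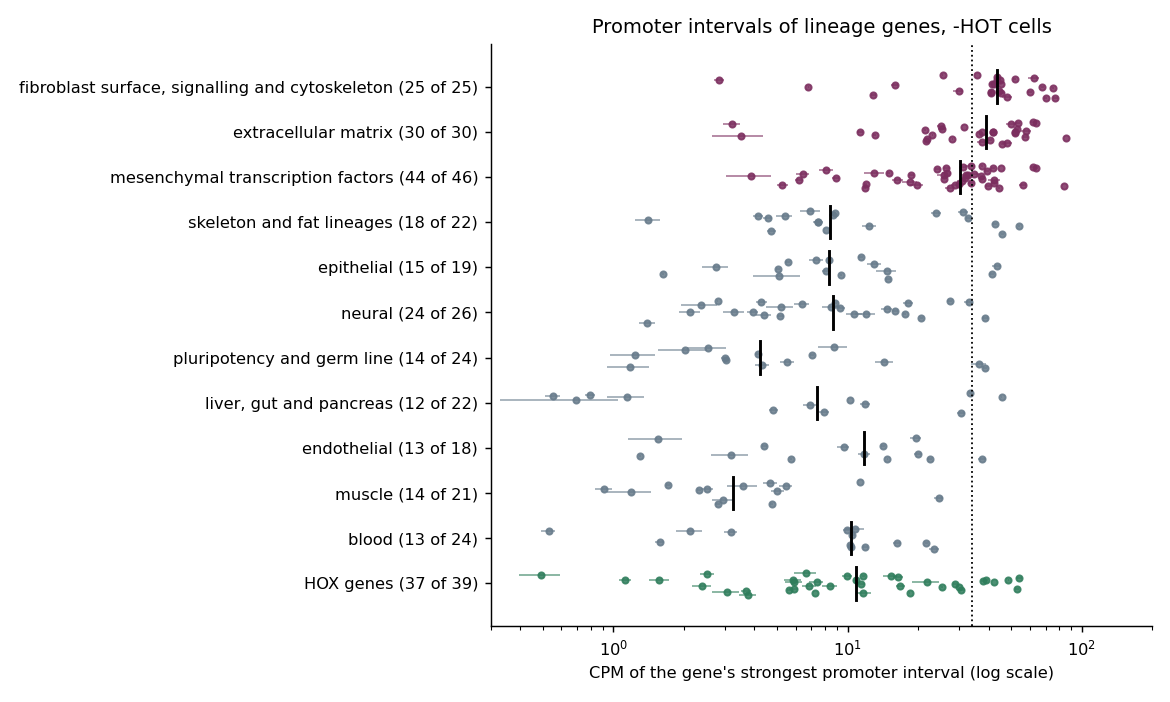
CPM of the strongest promoter interval (x axis, log scale) for each gene of 12 lists (rows), with the number of genes that have an interval in parentheses. Points are means of both -HOT libraries, horizontal lines join the 2 library values, vertical bars are list medians, and the dotted line is the limit of the top 25% at 33.9 CPM. The 3 fibroblast lists (purple) have medians between 30.2 and 43.5 CPM, the other lineages (grey) between 3.25 and 11.8 CPM, and the HOX genes (green) 10.9 CPM.

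Of the 3 fibroblast lists, that of surface, signalling and cytoskeleton genes had the highest share, with 19 of 25 genes in the top 25% by CPM, 15 of 25 per kb, and a median of 43.5 CPM. Vim (chr2:13493680-13496869), which encodes the intermediate filament vimentin, led with 78.7 and 75.5 CPM. The galectin gene Lgals1 had 74.8 and 76.3 CPM. The YAP and SRF target genes Cyr61 and Ctgf, which encode matricellular proteins, had 71.1 and 68.9 CPM and 59.0 and 65.5 CPM. Myh9, encoding non-muscle myosin heavy chain, had 68.6 and 67.0 CPM, and Itga5, the fibronectin receptor subunit, 61.4 and 58.3 CPM. The PDGF receptor genes, which mark mesenchymal cells, were both in the top 25%, with 43.7 and 43.3 CPM for Pdgfrb and 35.5 and 35.8 CPM for Pdgfra.

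Several familiar fibroblast markers were much weaker. Thy1, the surface glycoprotein CD90, had 12.5 and 13.2 CPM. Fap, a serine protease of activated fibroblasts, had 6.84 and 6.77 CPM, and the TGF-beta co-receptor gene Eng had 2.96 and 2.70 CPM. Nt5e, encoding the ectonucleotidase CD73, had 16.5 and 15.3 CPM. These 4 promoters lay below the median over all genes in both libraries. Distal intervals were present around them, with summed levels of 89.1 and 91.7 CPM within 50 kb of Thy1 and of 63.3 and 59.6 CPM near Eng, but of only 6.19 and 7.69 CPM near Fap.

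Extracellular matrix genes all had an interval, and 18 of 30 lay in the top 25% by CPM but 8 of 30 per kb. The strongest was Col5a1 (chr2:27741001-27745134), a regulator of collagen fibril assembly, with 85.7 and 85.8 CPM. Thbs1, encoding the adhesive glycoprotein thrombospondin, had 63.3 and 64.1 CPM. Col1a2 had 63.2 and 59.9 CPM and Col1a1 52.4 and 51.7 CPM, the genes of the type I collagen chains. The collagen chaperone gene Serpinh1 had 60.8 and 54.7 CPM, and the crosslinking enzyme genes Lox and Loxl1 had 58.7 and 56.0 CPM and 54.2 and 52.1 CPM. Col3a1, the partner of type I collagen in loose connective tissue, was lower at 26.4 and 24.4 CPM.

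At the weak end of the matrix list stood Lum (2.93 and 3.49 CPM) and Dcn (13.2 and 12.8 CPM), which encode small leucine-rich proteoglycans of mature matrix. The proteoglycan gene Bgn had 10.9 and 11.6 CPM. Tnc, a glycoprotein gene of wounds and embryos, had 2.64 and 4.34 CPM at its promoter but 96.6 and 93.6 CPM in 9 distal intervals within 50 kb. Thus a weak promoter interval did not mean a closed neighbourhood.

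The mesenchymal transcription factors were more varied, with 15 of 46 genes in the top 25% by CPM, 7 of 46 (below the background share) per kb, and a median of 30.2 CPM. Nfatc4 (chr14:56441209-56445131), a calcium-responsive factor, had 84.2 and 83.9 CPM. The T-box gene Tbx3 had 65.0 and 62.7 CPM and Runx1, known from blood and from fibroblasts, 63.9 and 59.98 CPM. Prrx1, the limb mesenchyme homeobox gene, had 57.7 and 53.9 CPM across an interval of 4619 bp. The basic helix-loop-helix genes Twist2 and Twist1 had 43.8 and 44.6 CPM and 40.3 and 38.1 CPM.

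Several position-specific members of this list were weak. Tbx5, a forelimb and heart factor, had 3.01 and 4.70 CPM, whereas the hindlimb genes Tbx4 and Pitx1 had 31.7 and 31.6 CPM and 18.3 and 19.1 CPM. The craniofacial homeobox genes Alx1 and Alx4 had 4.98 and 5.56 CPM and 6.43 and 5.98 CPM, and the kidney and face factor gene Six2 had 6.84 and 6.02 CPM. Hand1 and Tcf21, which act in heart and visceral mesenchyme, had no promoter interval. Hand2, of limb and heart mesoderm, had 8.59 and 9.17 CPM.

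HOX genes differed strongly between their 4 clusters. The Hoxa cluster (chromosome 6) summed to 479 and 482 CPM, the Hoxd cluster (chromosome 2) to 262 and 255.5 CPM, the Hoxc cluster (chromosome 15) to 146 and 147 CPM and the Hoxb cluster (chromosome 11) to 72.8 and 73.6 CPM. The clusters span 96.8 to 173.9 kb and Hoxb is the longest, so the order is not one of length. Per kb of span the mean values were 4.56, 2.67, 1.26 and 0.421 CPM in this order. Differences between any of the clusters were far larger than the SD between libraries, which was at most 4.79 CPM.

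Within Hoxa, Hoxa9 (chr6:52175471-52178381) was the strongest, with 52.1 and 55.3 CPM, followed by Hoxa3 with 48.8 and 48.3 CPM. Hoxa10 and Hoxa11, which pattern the proximal limb and the posterior trunk, had 39.6 and 37.9 CPM and 37.0 and 38.7 CPM. All 4 lay in the top 25%. Hoxa2 was weak, with 1.72 and 1.41 CPM. In Hoxd, Hoxd11 led with 53.9 and 51.7 CPM and the 5' genes Hoxd10, Hoxd12 and Hoxd13 held between 25.1 and 31.6 CPM in either library, above Hoxd1 (7.89 and 6.87 CPM) and Hoxd3 (12.5 and 10.8 CPM).

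In Hoxc the highest was Hoxc13 with 17.5 and 16.1 CPM, and in Hoxb no gene exceeded 7.30 CPM in either library. Hoxb1 had 22 and 12 reads, or 0.592 and 0.395 CPM. Hoxa6 and Hoxd4 had no interval of their own. HOX genes stand so close together that the windows of neighbours can overlap.

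**Figure D3:**
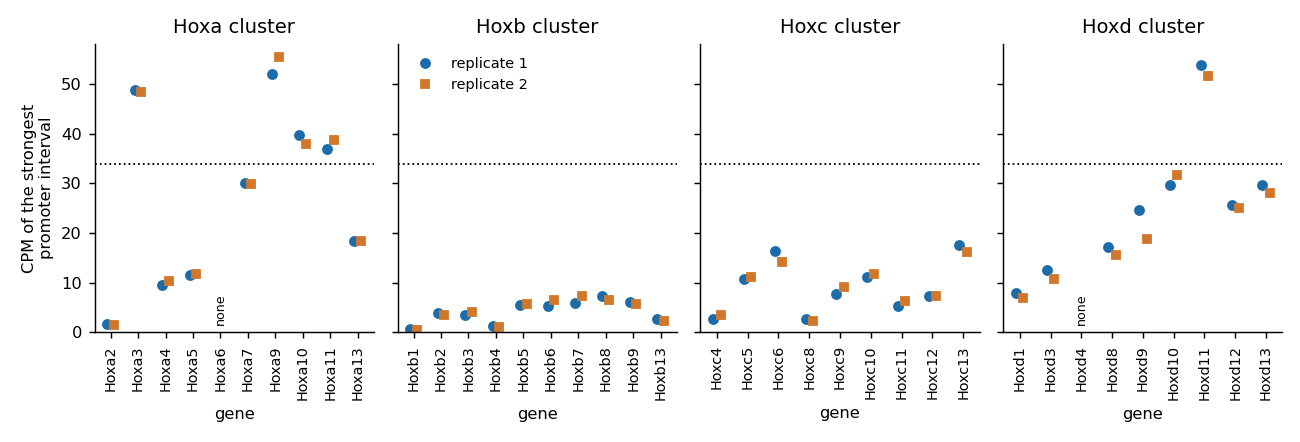
CPM of the strongest promoter interval (y axis) for genes of each HOX cluster in numerical order (x axis), with replicate 1 as circles and replicate 2 as squares; the dotted line is the limit of the top 25% at 33.9 CPM and "none" marks genes without an interval. Hoxa9 and Hoxd11 exceed 50 CPM, while all Hoxb genes stay under 8 CPM.

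Factors that respond to serum and cell stretch had strong promoters as well. Of 25 AP-1, TEAD and SRF pathway genes, all had an interval and 18 lay in the top 25%, and 17 did so per kb. Jun (chr4:94717370-94720701) had 88.9 and 89.2 CPM and Myc, a growth regulator, 88.7 and 85.6 CPM. Junb had 80.3 and 76.5 CPM and the early response gene Egr1 69.0 and 64.5 CPM. Fosb had 62.0 and 62.4 CPM, and the YAP partner gene Wwtr1, which encodes TAZ, 57.9 and 55.2 CPM. Fos itself had 39.9 and 39.9 CPM at its promoter, and its 13 distal intervals within 50 kb summed to 213 and 216 CPM. At the weak end were Batf (1.43 and 1.48 CPM) and Batf3 (11.04 and 9.08 CPM), AP-1 members of immune cells. Cebpb (15.8 and 12.2 CPM), Mkl2 (21.6 and 17.6 CPM) and Tead2 (23.2 and 19.9 CPM) also lay below the median over all genes.

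Genes of other lineages had a promoter interval as often as all annotated genes (69.9% each), but those intervals were mostly weak. The share with an interval ranged over the 8 lists between 54.2% for blood and 92.3% for neural genes. Of 24 blood genes none was in the top 25% and 11 had no interval, among them Ptprc, Gata1, Cd3e and Spi1 (annotated as Sfpi1). The highest blood gene was the receptor gene Cd14, with 22.3 and 24.6 CPM, and the lymphoid factor gene Ikzf1 had 0.565 and 0.493 CPM. Of 21 muscle genes none reached the top 25%. Mef2c had 25.5 and 23.4 CPM, but Myod1 (chr7:53633757-53634170) had 31 and 30 reads, equal to 0.834 and 0.986 CPM, and Myf5 and Ckm had no interval.

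Neural genes almost all had an interval (24 of 26) but at low levels, with a median of 8.67 CPM. Dlx1, a homeobox gene of forebrain and also of facial mesenchyme, was the only member in the top 25%, with 39.9 and 37.4 CPM, and its neighbour Dlx2 followed with 34.2 and 31.5 CPM, on average below the limit. Neuronal tubulin Tubb3 had 27.8 and 26.7 CPM. Olig2 had 1.51 and 1.28 CPM. Sox10, of the neural crest, had none.

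In the endothelial list the ETS factor gene Fli1 was highest with 38.9 and 36.1 CPM, whereas Pecam1 had 3.77 and 2.60 CPM, Cdh5 1.96 and 1.15 CPM, and Tie1 and Robo4 had no interval. In the epithelial list Tjp3 (45.2 and 41.4 CPM) and Esrp2 (40.2 and 42.3 CPM) lay in the top 25%. The Tjp3 interval is shared with Pip5k1c, a widely expressed lipid kinase gene. Cdh1, encoding E-cadherin, had 6.27 and 3.95 CPM, Grhl2 1.62 and 1.64 CPM, and Krt14, Krt18 and Trp63 had no interval.

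Of the liver, gut and pancreas genes, Gata6, which is also used in mesenchyme, was the only one in the top 25%, with 45.0 and 45.8 CPM. Alb, Afp, Ttr and Pdx1 had no interval, and Cdx2 had 1.05 and 0.329 CPM. Among pluripotency and germ line genes, Klf4 (39.0 and 33.6 CPM), which fibroblasts also express, and Gdf9 (38.0 and 39.5 CPM), whose interval is shared with the respiratory chain gene Uqcrq, were in the top 25%. Pou5f1 had 35 and 43 reads (0.942 and 1.41 CPM), and Nanog and Zfp42 had no interval.

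The skeleton and fat list had 3 of 22 genes in the top 25%. These were the cartilage collagen gene Col2a1 (54.6 and 53.5 CPM), the chondrocyte master regulator gene Sox9 (46.4 and 45.2 CPM) and Cebpa (43.6 and 41.3 CPM), a factor of fat cells. Pparg, the adipocyte receptor, was intermediate with 25.03 and 22.6 CPM, while its 15 distal intervals within 50 kb summed to 102 and 104 CPM. Terminal markers were low or without an interval, as for Acan (4.52 and 4.93 CPM), Bglap (4.76 and 4.34 CPM), Sp7 (3.93 and 4.34 CPM), Adipoq and Plin1.

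A panel of cell type markers was chosen with earlier results of these data known, so it is not an independent check of the label. All 11 fibroblast markers had a promoter interval, 9 of them in the top 25%, with sums of 506 and 488 CPM. None of 5 blood markers had an interval, so they were not measured. Summed over the markers with an interval, values were 3.20 and 3.26 CPM for 2 of 4 muscle markers, 20.3 and 22.4 CPM for 4 of 4 neural markers, 19.6 and 18.1 CPM for 3 of 5 endothelial markers, and 25.7 and 23.2 CPM for 5 of 6 epithelial markers. For 2 of 4 pluripotent markers the sums were 4.98 and 6.02 CPM, and for 2 of 4 liver and gut markers 8.56 and 8.65 CPM. None of the panel's markers of other lineages lay in the top 25%. In the 8 wider lists of other lineages, 10 of 176 genes did. The fibroblast panel leaves out Fap, Eng, Nt5e, Lum and Dcn, whose promoters lay below the median over all genes. The sums cover unlike numbers of markers.

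Genes tied to the making of the line were open. All 8 had an interval and 4 were in the top 25%. Trp53, which shares its interval with Wrap53, had 73.4 and 76.8 CPM, and its target genes Cdkn1a and Mdm2 had 58.4 and 56.8 CPM and 44.0 and 42.4 CPM. Cdkn2a (chr4:88927432-88929152), whose p19Arf product the shRNA targets at the RNA level, had 36.7 and 36.3 CPM. This is the strongest interval at any TSS of the gene, and it was not assigned to the p19Arf transcript. The Ash2l promoter (chr8:26950375-26952151), which does not test the loxP-flanked exon, had 34.5 and 31.04 CPM, and Esr1, the natural gene of the receptor whose hormone-binding part is fused to Cre, 20.1 and 20.7 CPM.

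Cell cycle genes all had an interval, with 15 of 30 in the top 25% and none under 16.8 CPM. E2f3 had 84.5 and 80.04 CPM, and the D-type cyclin genes Ccnd3, Ccnd2 and Ccnd1 had 64.04 and 60.6 CPM, 59.0 and 59.8 CPM, and 50.6 and 49.8 CPM. The replication helicase gene Mcm7 had 52.6 and 56.1 CPM. At the weak end were the spindle checkpoint gene Bub1 (17.1 and 16.6 CPM), the helicase gene Mcm2 (18.3 and 17.2 CPM) and the mitotic cyclin gene Ccnb2 (20.6 and 19.6 CPM). Ribosomal protein genes, although among the most transcribed of the cell, were close to the average, with 16 of 84 in the top 25% and a median of 25.6 CPM. Per kb, 27 of them lay in the top 25%. Rpl24 led with 68.4 and 66.0 CPM, and the tissue-restricted copies Rpl10l, Rpl39l and Rpl3l had no interval.

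Families of at least 20 genes with a common symbol stem covered the whole range of shares with a promoter interval, for example 55.2% of Cd, 67.4% of Gpr and 81.0% of Slc genes. At the low end, none of 21 Mup genes (urinary proteins of the liver) had a promoter interval, nor did most of 327 vomeronasal receptor genes (5 with) or of 1113 genes with the stem Olfr (39 with, none in the top 25%). Of the skin genes, 8 of 46 Krtap and 15 of 51 Krt genes had one, and of the cytochrome P450 genes 34 of 98. At the other end were 64 of 67 Hist genes, 44 of which lay in the top 25%, and all 26 Cdk and all 20 Cep genes, with 13 and 12 in the top 25%. Histone genes stand close together and share intervals, so their count is not one of independent promoters. Among olfactory receptors with an interval, the highest was Olfr455 with 17.9 and 18.2 CPM.

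Intervals on the X chromosome were weaker than on any autosome. The median was 2.50 CPM for X distal intervals, against 3.41 to 3.90 CPM on the 19 autosomes, and 10.4 CPM for X promoter intervals, against 13.8 to 20.1 CPM. The ratios of X to all autosomes were 0.688 for distal and 0.660 for promoter intervals. The number of X chromosomes in the line was not given in the sources used here, and its part in these values was not tested.

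After AY036118, the strongest single-copy distal interval was a short one on chromosome 11 (chr11:108872960-108873414), 88.7 kb from the TSS of Axin2, a Wnt target gene, with 221 and 234 CPM. With 485 and 515 CPM per kb over its 455 bp, this interval was the densest of the paragraph after AY036118. An interval that overlaps 2210403K04Rik and Tlcd2 (chr11:75273610-75276856) held 124 and 123 CPM. An interval over Neat1, the RNA scaffold of paraspeckles, held 95.8 and 101.4 CPM, and the neighbouring Malat1, another abundant nuclear RNA, had a promoter interval of 97.2 and 106.3 CPM. An interval between genes at chr19:12083914-12087280 had 103 and 109 CPM although the nearest TSS belongs to the olfactory receptor gene Olfr1423. Intervals near Tnrc18 and Shf held 101 and 96.9 CPM and 94.6 and 97.1 CPM. Short intervals in Cdk8 (134 and 130 CPM in 371 bp) and Lars2 (140 and 148 CPM in 390 bp) were also dense, at 355 and 370 CPM per kb on average. The Cdk8 interval just reached the single-copy limit of 80%, while the Lars2 interval, at 50%, did not.

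Distal intervals tended to lie close to each other. Joining those at most 12.5 kb apart gave 12373 clusters of at least 3 intervals, which held 61425 of the distal intervals (62.2%) and 40.3% and 41.02% of all reads. A cluster had a median of 4 intervals and 19.9 kb. Intervals within clusters had a median of 4.06 CPM, against 2.94 CPM for the 37372 intervals outside. The strongest 10% of the clusters (1237) held 33.3% of the cluster reads. Clusters are defined by position only, and enhancer function was not measured.

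**Figure D4:**
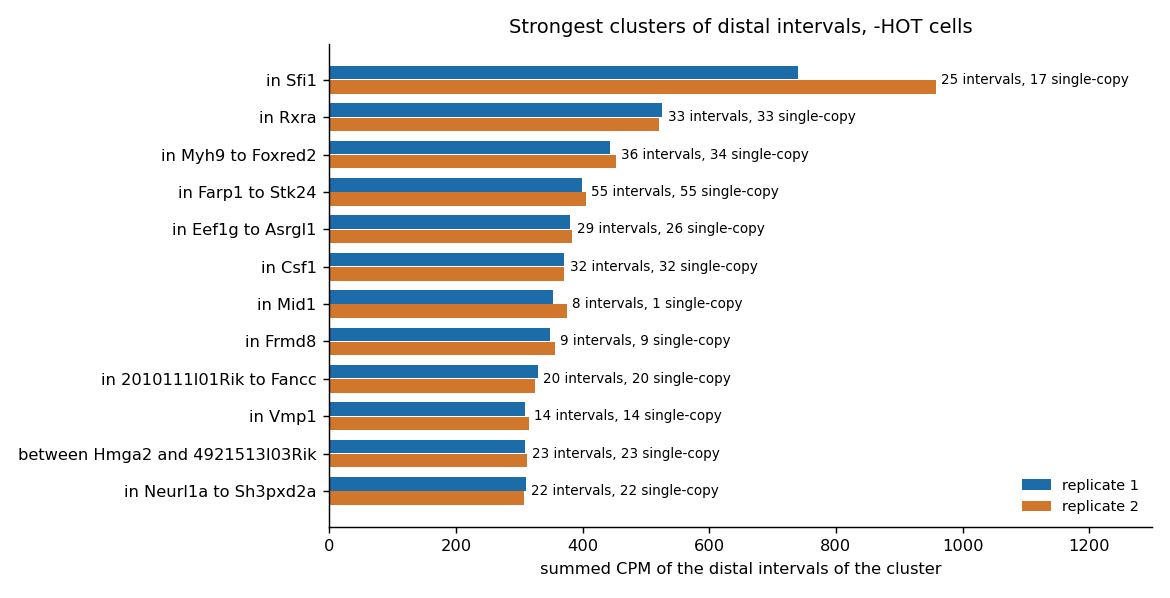
Summed CPM (x axis) of the distal intervals in the 12 strongest clusters (rows, named by the genes they lie in or between), for replicate 1 and replicate 2, with the number of intervals and of single-copy intervals beside each bar pair. All clusters exceed 300 CPM in both libraries, and the cluster at Sfi1 differs most between them.

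The leading cluster lay at Sfi1 on chromosome 11 and summed to 739.7 and 957.9 CPM over 25 intervals, of which 17 were single-copy. When only single-copy intervals were joined, the cluster there was smaller, with 15 intervals over 47.3 kb. It held 453 and 620 CPM, so replicate 2 was higher there too. The next cluster (chr2:27542359-27731101) spanned the retinoid receptor gene Rxra and ended 10.8 kb from Col5a1, with 526 and 521 CPM over 33 intervals, all single-copy. A cluster across Myh9 on chromosome 15 held 442 and 453 CPM over 36 intervals. The cluster across Farp1 and Stk24 on chromosome 14 had 399 and 405 CPM and the most intervals (55), over 302.6 kb.

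Further clusters surrounded Ahnak, which encodes a giant scaffold protein (379 and 383 CPM), and Csf1, the growth factor of macrophages (371 and 371 CPM). The Mid1 cluster on chromosome X held 354 and 375 CPM, but only 1 of its 8 intervals was single-copy. The cluster at Frmd8 holds the Neat1 interval and had 348 and 357 CPM in only 9 intervals. Clusters at Fancc (329 and 325 CPM) and Vmp1 (309 and 316 CPM), between Hmga2 and 4921513I03Rik (309.6 and 311.9 CPM) and at Neurl1a and Sh3pxd2a (311 and 307 CPM) completed the 12 strongest. HMGA2 is a chromatin protein of embryonic mesenchyme and SH3PXD2A a podosome scaffold.

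The order by number of intervals was different. A cluster across Col3a1 and Col5a2 on chromosome 1 had 42 intervals with 163 and 173 CPM, and one without genes between Rasgrp1 and Thbs1 on chromosome 2, 49.8 kb from Thbs1, had 41 intervals with 263 and 274 CPM. A cluster 7.56 kb from Maml2, a Notch coactivator gene, had 34 intervals with 279 and 291 CPM. The intervals at Col3a1 and Col5a2 were many but individually weak, as that cluster ranked 105 by summed CPM. Around single genes, the highest distal sums within 50 kb among the fibroblast lists were those of Myh9 (384 and 393 CPM), Col4a2 (321 and 316 CPM) and the caldesmon gene Cald1 (269 and 279 CPM). These sums were not scaled to the width of the windows around all TSSs of a gene.

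In the centre of intervals, the AP-1 motif was rarer in the weakest distal and in the strongest promoter intervals. In the central 300 bp, TGANTCA was found in 28.5% of the strongest 10% of distal intervals (Wilson 95% interval 27.6 to 29.3%), in 20.0% of the weakest 10% (19.3 to 20.8%) and in 27.6% of all. When each replicate was ranked alone, the strongest 10% had 28.6% and 28.5%. The other 8 bins lay between 27.3% and 31.5%, so the share was lower only in the weakest. Ranked per kb, the share climbed through nearly all bins, to 34.4% in the strongest against 14.9% in the weakest. Over whole intervals it was 69.1% against 21.1%, but the strongest 10% had a median length of 1487 bp against 303 bp. These intervals cover counting error only, and the intervals of the table are not independent samples.

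The centres of promoter intervals showed the opposite order, with 5.21% (4.33 to 6.25%) in the strongest 10% and 18.1% (16.5 to 19.8%) in the weakest, and with 7.69% and 12.2% when ranked per kb. Over whole promoter intervals the direction turned, with 45.1% in the strongest and 21.6% in the weakest 10%, whose median lengths were 2348 and 367 bp. The GC box followed promoter strength, with 57.4% (55.2 to 59.5%) of the strongest 10% of promoter intervals and 13.6% (12.2 to 15.2%) of the weakest. In distal intervals it was found in 10.4% of the strongest and 3.61% of the weakest 10%. The ETS motif CCGGAAG was held by 10.2% of the strongest and 1.95% of the weakest 10% of promoters. The TATAAA box went the other way, with 5.55% of the strongest and 15.7% of the weakest 10% of promoters. The TEAD motif GGAATG was found in 25.6% (24.7 to 26.4%) of the strongest and 21.8% (21.0 to 22.6%) of the weakest 10% of distal intervals, and per kb in 26.5% and 20.9%. For the RUNX motif TGTGGT the shares were 26.5% and 26.9% by CPM, with overlapping counting intervals, but 28.6% and 24.8% per kb. All motifs were searched on both strands, and GC content itself differed, with medians of 62.7% in the strongest and 48.7% in the weakest 10% of promoters.

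**Figure D5:**
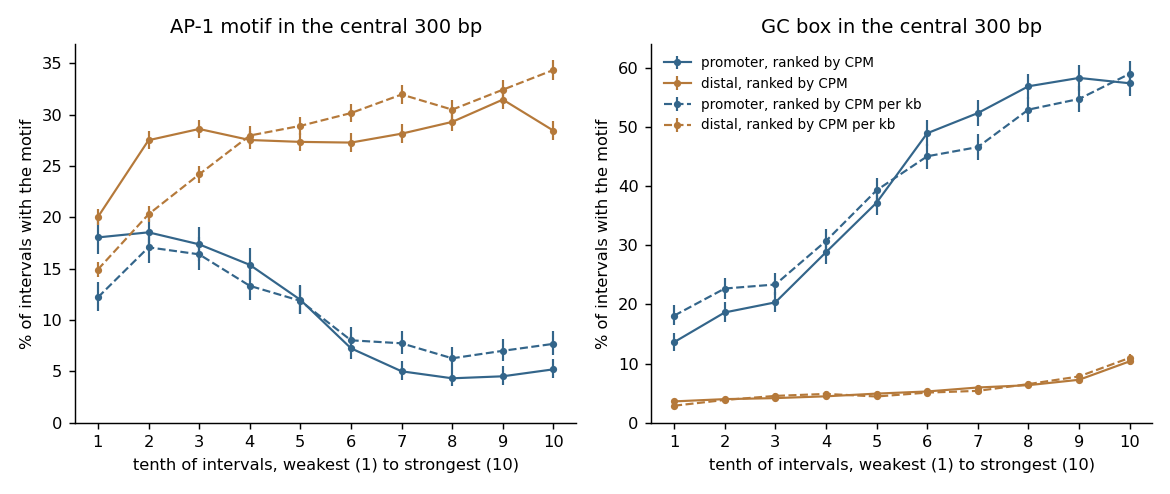
Percentage of promoter and distal intervals (y axis) whose central 300 bp hold the AP-1 motif TGANTCA (left) or the GC box GGGCGG (right), in bins of 10% by strength from weakest to strongest (x axis), ranked by CPM (solid) or CPM per kb (dashed). Bars are Wilson 95% intervals. The AP-1 share lies higher in distal than in promoter intervals in every bin, at 28.5% against 5.21% in the strongest by CPM, and the GC box the other way round, at 10.4% against 57.4%.

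Footprint values of the merged -HOT libraries, which the authors deposited for 709 motifs, are given for the 559 motifs with at least 1000 sites and have no replicates. The tag count, a score of read density around the motif sites, ranged from 0.477 to 1.58 with a median of 0.698. The highest belonged to ZBTB33 (1.58 over 1460 sites), a methyl-CpG binding factor also called Kaiso, then the ETS factor ELK1 (1.49), NFYA (1.48), KLF14 (1.47), SP9 (1.47), SP4 (1.47), NRF1 (1.46) and SP1 (1.44). These are mostly motifs of GC-rich promoters. Among the lowest were the ONECUT factors of liver and nervous system, ONECUT1 (0.477), ONECUT2 (0.479) and ONECUT3 (0.492), and Arid3b (0.493), whose motifs are rich in A and T.

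The protection score, which compares reads at the motif with its flanks, was highest for NFYA at 1.997, against a median of 0.598. The CCAAT box that NFY binds is in capitals in the Vim window above, and also in those of Nfatc4, Myod1 and Olig2. The NFYA score is pooled over 4828 sites and does not show binding at any of these promoters. FOS::JUN had a tag count of 0.893 over 27509 sites, rank 109 of 559, with a protection score of 0.383, rank 480. Protection scores of other AP-1 motifs at a like tag count varied widely. They were 1.11 for FOSL1 and 1.08 for FOS, but 0.381 for JUN::JUNB and 0.325 for FOSB::JUNB. CTCF, the insulator protein, had a tag count of 0.887 over 14132 sites with a protection score of 0.925. TEAD1 had a tag count of 0.778 and RUNX1 of 0.753. The motifs of AP-1, CTCF, TEAD1 and RUNX1 were named for their background role and not by rank.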

How the data were processed

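ATAC-seq was performed by the study on ethanol-treated iMEF2 cells (-HOT) in 2 technical replicates. The authors trimmed the reads, aligned them to mm9 with BWA, removed duplicates, unpaired and blacklisted reads with Picard and SAMtools and called narrow peaks with MACS2. The authors deposited raw read counts for each interval. How peaks of the libraries were joined is not stated in the methods or labels. The deposited footprint scores (tag count and protection score) come from RGT-HINT on merged replicates. Columns of the authors' comparison between conditions hold fold changes and p-values and were not used. Removal of duplicates caps the strongest sites, and regions outside peaks are not measured.

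CPM were computed as counts over the library total of 37151163 or 30411621, with starts converted to 1-based positions. Values are given per library. With 1 condition no test was made, and SDs measure technical spread only. Intervals were placed with GENCODE vM1. Of the gene symbols in 17 lists, 3 were found under older names and Cebpd and Sox1 were not matched. Named intervals, promoters and clusters were the strongest by CPM or per kb, list members the strongest and weakest, and other named members were chosen after their values were seen. Some list members and motifs are not reported here. Members and lists were chosen with earlier results of these data known. Ranking, promoter assignment, clustering and motif search were tested on simulated data. Python 3.11.15, pandas 2.3.3, numpy 2.4.6, numba 0.67.0 and scipy 1.17.1 were used. The builds and tools above follow the methods and the submitters' processing notes. Alternatives covered single libraries, windows, TSS sets, rankings, read minima, cluster definitions and motif definitions, and single-copy intervals, which were added after seeing the data.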

Additional observations from a re-analysis of the deposited data

How the results depend on the processing

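No paired analysis was possible because no groups were compared and no result comes from a test. Of 50 alternatives to 7 results, 22 stayed within the spread of the libraries, or within 1.5 times for counts. The number of clusters cannot change with the ranking, and leaving out a library removes only intervals without reads from the counts. The spread was 0 for the fibroblast share and 0.0017 percentage points for the strongest 1%, so almost any shift counted as moved there. The tally therefore does not measure how stable the results are. The share of reads in promoter intervals (main value 39.8%) was 35.2% with a promoter window of 1000 bp and 44.6% with TSSs of every transcript, and 39.2 to 40.4% when either replicate was left out. The share in the strongest 1% of intervals (9.22%) was 7.31% ranked per kb, 8.14% without mitochondrial and unplaced intervals, 9.04% with at least 20 reads in both libraries, 8.36% in single-copy sequence (an alternative chosen after seeing the data), and 9.23 to 9.23% with single replicates. The share of fibroblast genes in the top 25% of promoters (51.5%) was 44.6% with a promoter window of 1000 bp, 29.7% per kb, 44.6% for the interval nearest to a TSS, 23.8% for the top 10%, and 52.5 to 52.5% with single replicates. For genes of other lineages (5.68%) it was 3.98%, 4.55%, 6.82% and 1.14% under the same settings, and 5.68 to 6.25% with single replicates. The number of distal clusters (12373) was 6431 with a gap of 5 kb and 4937 with at least 5 intervals. Ranked per covered kb, 3 of the 12 strongest clusters were shared with the ranking by sum. The AP-1 share of the strongest 10% of distal intervals (28.5%) was 27.7% with a promoter window of 1000 bp, 34.4% per kb, 69.1% in whole intervals, 22.8% for TGACTCA or TGAGTCA alone, 28.7% in single-copy sequence, and 28.5 to 28.6% with single replicates. The number of genes with a promoter interval was 14911 to 20182 under its alternatives. The cause of these shifts was not tested, except that whole intervals and the top 10% change what is counted by construction. Depth limits weak intervals, since 4128 had under 20 reads in at least 1 library.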
